A study of Mus musculus with 12 samples.

Results

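The amino acid transporters described here are 10 genes: Slc38a1, Slc38a2, Slc38a9, Slc7a1, Slc7a2, Slc7a3, Slc7a5, Slc3a2, Slc7a11 and Slc1a5. They were taken by gene symbol from a table of 30154 genes, in RNA sequenced from flow-sorted muscle stem cells, which divide and fuse into fibres when muscle is injured. Quadriceps, gastrocnemius and tibialis anterior of C57BL/6J mice, 2 to 3 months of age, were the source. Mice were wild type or carried a knockout of both Sestrin1 and Sestrin2, and cells were taken before injury (day 0) and at 7 and 21 days after it, with 2 libraries in each of the 6 groups. The labels do not say whether the 2 libraries of a group came from separate animals, so p-values measure the spread between these libraries, which may be technical. They also name no kind of injury and no promoter or cell type for the knockout, and the control cells carried the wild-type alleles.

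The genes were selected on results of these libraries: Slc38a1 and Slc7a3 were picked for how knockout and wild type differed at day 0. Values of that comparison are therefore given for all 10 genes as a description with no test, and so are all comparisons of Slc38a1 and Slc7a3 that involve a day 0 library. Everything else was tested in one edgeR fit over 15890 genes, which all 10 transporters entered after the filter on low counts. A change is called where the p-value adjusted over those genes is under 0.05. Levels are given in CPM (counts relative to the scaled library total) and, where genes are compared with each other, in TPM (which also allows for transcript length).

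Cells take up amino acids through membrane carriers with overlapping substrates. Slc38a1 and Slc38a2 bring in glutamine and other small neutral amino acids with sodium, and Slc1a5 exchanges glutamine and other neutral amino acids. Slc7a5 and Slc7a11 are light chains that reach the cell surface bound to a shared heavy chain, Slc3a2: with Slc7a5 it carries leucine and other large neutral amino acids, and with Slc7a11 it brings in cystine, the source of cysteine for glutathione. Slc7a1, Slc7a2 and Slc7a3 carry the cationic amino acids arginine and lysine. Slc38a9 sits in the lysosomal membrane and reports lysosomal arginine to the kinase complex mTORC1. Sestrin2 binds leucine and restrains mTORC1, and several of these carrier genes are known targets of ATF4, the transcription factor induced when amino acids are short.

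Total estimated counts were 28396780 to 38950514 per library. Sesn2, one of the knocked-out genes, was at 44.9 to 84.3 CPM in the wild-type libraries of days 0 and 7 and at 1.92 to 7.03 CPM in the knockout libraries, so for Sesn2 those 8 libraries matched their labels. Sesn1, the other targeted gene, was lower in knockout but far from lost: 46.0 and 45.8 CPM against 70.3 and 68.6 CPM at day 0, and 28.4 and 22.4 CPM against 84.0 and 67.9 CPM at day 7. At day 21 Sesn2 went against the label of 2 libraries: replicate 1 labelled wild type was at 8.92 CPM, and replicate 2 labelled knockout at 108 CPM. Sesn1 had the same order there, at 43.7 and 67.2 CPM in those 2 libraries, against 78.3 CPM in the other wild-type-labelled and 41.7 CPM in the other knockout-labelled library. Day 21 libraries are therefore named by their label, and the comparison of day 21 genotypes is given with and without those 2 libraries. The 10 markers of muscle stem cells, among them Pax7 and Myf5, were detected in every group, with a summed level of 513 to 539 TPM in knockout and 848.5 to 856 TPM in wild type at day 0, and of 1003 to 1436 TPM on the other days. Markers of fibro-adipogenic cells, the matrix-producing cells between fibres, summed to 9736 to 17087 TPM over all libraries, above the stem cell markers in each of them, and that list includes Dcn and Gsn.

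Between the genotypes at day 0, 9 of the 10 muscle stem cell markers, 9 of 10 cell cycle markers, 9 of 10 skin and sebaceous markers, 7 of 7 red blood cell markers, 8 of 10 fibro-adipogenic markers and 6 of 10 markers of differentiated muscle were lower in both knockout libraries than in both wild-type libraries, and 7 of 10 endothelial markers were higher. Of all genes 75.1% did not overlap on that day, in either direction. The summed cell cycle markers were at 30.3 to 32.2 TPM in knockout and 79.2 to 84.0 TPM in wild type, the red blood cell markers at 742 to 782 and 3123 to 3130 TPM, and the skin and sebaceous markers at 104 to 106 and 218 to 222 TPM. Fibro-adipogenic markers summed to 9736 to 9984 and 11366 to 11416 TPM, markers of differentiated muscle to 75.9 to 83.4 and 122 to 129 TPM, and endothelial markers to 310 to 313 and 259 to 260 TPM. The summed immune markers were higher in knockout, at 3406 to 3515 TPM against 2033 to 2049.5 TPM, of which nearly all was Lyz2, while 5 of the 9 were lower and 2 higher in knockout without overlap, and the pan-leukocyte gene Ptprc was at 0.0143 TPM in knockout and 0.0359 TPM in wild type on average. In these bulk samples fewer cells of a type and less RNA per cell cannot be told apart, and the part of these cell types in the transporter differences at day 0 was not tested.

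The 10 genes spanned a wide range of levels. By the median over the 12 libraries the order was Slc3a2 at 317 TPM, Slc38a2 at 304 TPM, Slc1a5 at 155 TPM, Slc7a5 at 86.1 TPM, Slc7a1 at 11.9 TPM, Slc7a2 at 9.08 TPM, Slc38a1 at 6.63 TPM, Slc7a11 at 1.70 TPM, Slc38a9 at 1.27 TPM and Slc7a3 at 0.414 TPM. The ranges of neighbours in this order overlapped except those of Slc7a5 (25.8 to 154 TPM) and Slc7a1 (9.16 to 16.7 TPM): Slc3a2 ran from 263 to 384 TPM and Slc38a2 from 188 to 668 TPM, and Slc38a1, from 0.858 to 11.8 TPM, reached below the median of Slc7a11 and above that of Slc7a2. Slc3a2 was the steadiest gene, with its highest library 1.46 times its lowest, against 13.8 times for Slc38a1 and 5.95 times for Slc7a5. Slc7a3 rested on 0 to 50 counts per library and Slc7a11 on 61 to 225, so both carry more counting error than Slc38a2, with 21935 to 70185 counts.

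**Figure D1:**
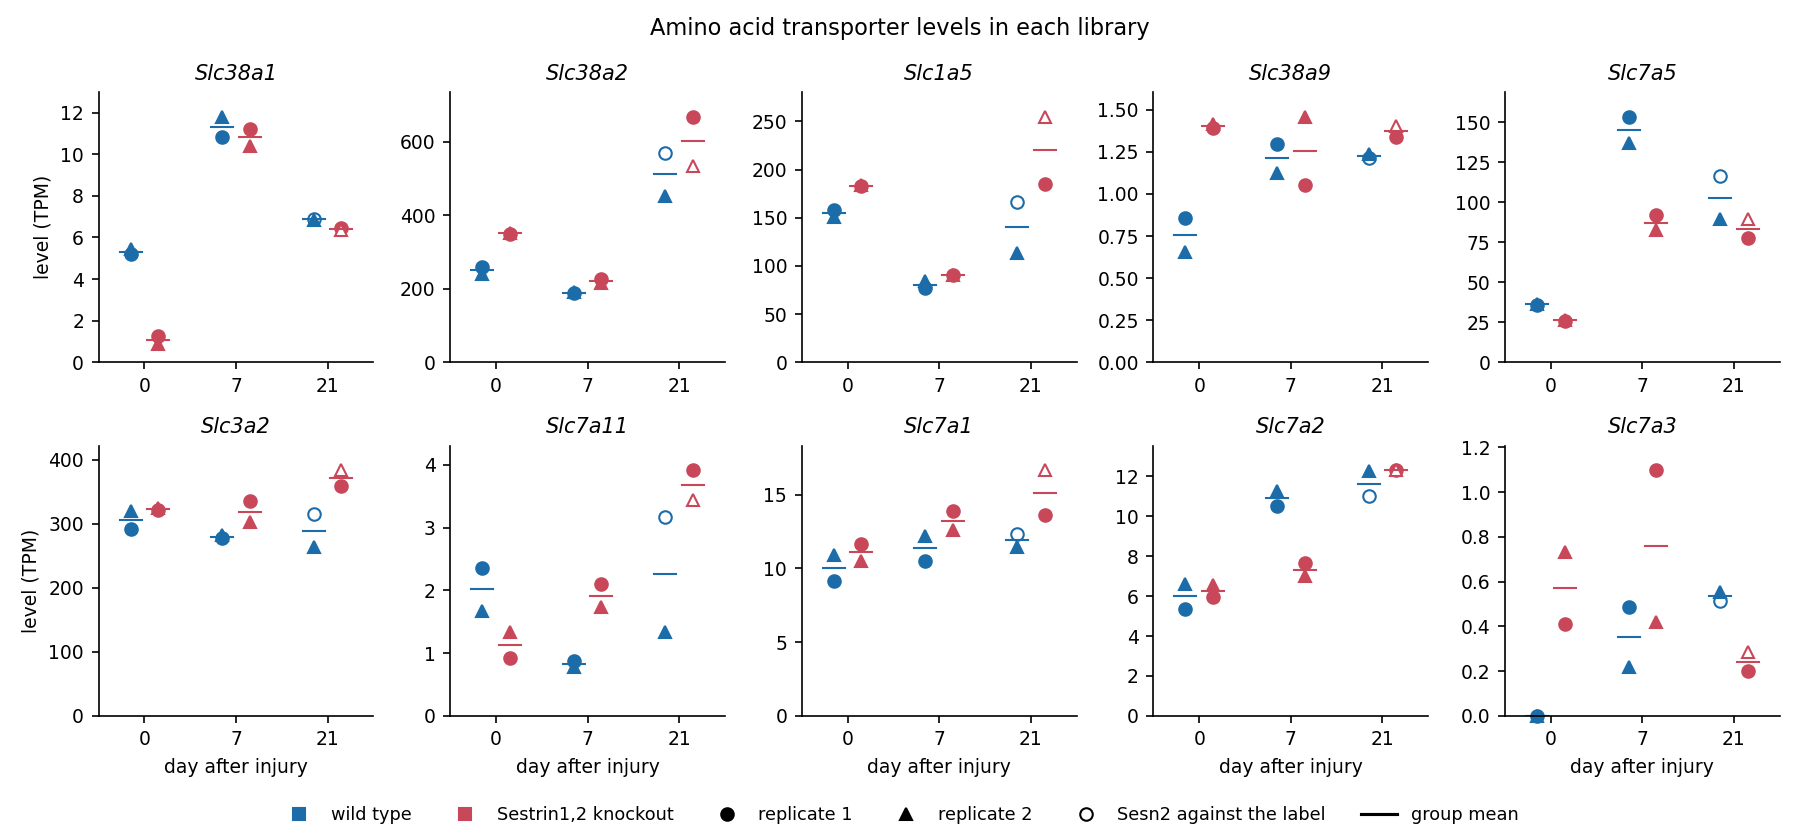
Level of each of the 10 amino acid transporters in TPM (vertical axis, linear, from 0, scaled to each gene) in every library by day after injury (horizontal axis), wild type in blue and Sestrin1,2 knockout in red. Circles are replicate 1, triangles replicate 2, short lines group means, and open symbols the 2 day 21 libraries whose Sesn2 level went against their label. Slc38a1 was lowest in the knockout libraries of day 0, Slc7a5 highest in wild type at day 7, and Slc7a11 changed its order of genotypes between day 0 and day 7.

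The 3 carriers of glutamine and small neutral amino acids followed different courses. Slc38a1 (chromosome 15, 96571418 to 96642913, minus strand, GRCm38) had 16.0 and 17.2 CPM at day 0 in wild type but 4.07 and 3.17 CPM in the knockout libraries, a fitted log2 difference of -2.19 (SE 0.145), which is the value it was picked for. At day 7 the genotypes overlapped, with 28.4 and 29.7 CPM in wild type and 27.9 and 29.0 CPM in knockout. The log2 difference was then -0.03, with a 95% interval from -0.32 to 0.26 and an edgeR adjusted p of 0.957. At day 21 all 4 libraries lay between 17.7 and 20.2 CPM whatever their label. Set against day 0, the day 7 level was higher by a log2 value of 0.81 in wild type and 2.97 in knockout, values that share the selected day 0 libraries and were not tested. From day 7 to day 21, averaged over the genotype labels, Slc38a1 fell by 0.58 log2 units (SE 0.0932, edgeR adjusted p = 0.000365).

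Slc38a2 (chromosome 15, 96687392 to 96699730, minus strand) fell at day 7 and was highest at day 21. In wild type it fell from 970.5 and 902 CPM before injury to 606 and 608 CPM at day 7, with no overlap. In knockout it went from 1249.8 and 1283 CPM to 746 and 712 CPM. The log2 changes were -0.63 in wild type (SE 0.163, edgeR adjusted p = 0.0101) and -0.80 in knockout (SE 0.164, edgeR adjusted p = 0.00251). The wild-type call was lost without wild-type day 0 replicate 1, day 7 replicate 1 or day 7 replicate 2, with edgeR adjusted p of 0.0633, 0.0572 and 0.0546. The 4 libraries of day 21 ranged from 1493 to 2336 CPM, above all 4 of day 7, and Slc38a2 rose by 1.52 on the log2 scale over day 7 (SE 0.118, edgeR adjusted p = 3.29e-06). Against day 0 it was higher at day 21 by 0.81 (SE 0.116, edgeR adjusted p = 0.000318). Slc38a2 made up 94.2% to 99.8% of the summed TPM of Slc38a1 and Slc38a2 in every library, and 25.7% to 29.6% of the summed TPM of all 10 transporters at day 7 against 40.9% to 50.3% at day 21.

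Slc1a5 (chromosome 7, 16781340 to 16798274, plus strand) was lower at day 7 in both genotypes, and its mean at day 21 was near that of day 0. Its wild-type libraries had 292 and 287 CPM before injury, then 127 and 135 CPM at day 7. Its knockout libraries were at 330.4 and 320.3 CPM and then at 151.5 and 149 CPM. It fell by 1.15 on the log2 scale in wild type (SE 0.171, edgeR adjusted p = 0.000384) and by 1.11 in knockout (SE 0.170, edgeR adjusted p = 0.000408). The day 21 libraries were spread more widely, at 292 and 194 CPM under the wild-type label and 321 and 407 CPM under the knockout label. From day 7 to day 21 Slc1a5 rose by 1.09 (SE 0.120, edgeR adjusted p = 3.14e-05), and its mean level at day 21, 304 CPM, differed from the 307 CPM of day 0 by -0.05 (edgeR adjusted p = 0.793). Without the 2 day 21 libraries that went against their label, that last difference was -0.30 and passed the threshold (edgeR adjusted p = 0.00164).

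Slc38a9, the lysosomal arginine sensor (chromosome 13, 112660751 to 112738749, plus strand), was a low transcript, with 0.656 to 1.46 TPM. It was at 6.31 and 4.88 CPM in wild type and at 9.88 and 10.2 CPM in knockout at day 0, a log2 difference of 0.84 (SE 0.209) given as a description. At day 7 the wild-type libraries, at 8.30 and 7.06 CPM, lay inside the range of the knockout libraries, at 6.84 and 9.58 CPM, and the log2 difference was 0.09 (edgeR adjusted p = 0.902). Its change from day 0 to day 7 was 0.46 in wild type (edgeR adjusted p = 0.0959) and -0.29 in knockout (edgeR adjusted p = 0.275), neither past the threshold. An antisense gene, Gm47827, overlaps Slc38a9, and reads counted without strand cannot be split between a gene and its antisense partner where their transcripts coincide. The annotated transcripts of Gm47827 hold 0.915% of the 31-base stretches of Slc38a9, and those of Gm26584, a long non-coding RNA on the strand opposite Slc7a2, hold 6.38% of those of Slc7a2. Gm20388, on the strand opposite Slc7a5, shares 0 of 3704 with it.

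Slc7a5 (chromosome 8, 121881150 to 121907694, minus strand), the leucine carrier, had the largest rise at day 7 among the 8 transporters tested. Its wild-type libraries went from 98.0 and 94.3 CPM at day 0 to 364 and 315 CPM at day 7, and its knockout libraries from 66.8 and 69.4 CPM to 216 and 197 CPM. No library of day 7 or day 21 was as low as any of day 0. The rise was 1.82 on the log2 scale in wild type (SE 0.149, edgeR adjusted p = 8.60e-06), a 3.53-fold increase, and 1.60 in knockout (SE 0.149, edgeR adjusted p = 1.46e-05), a 3.03-fold increase. At day 21 it was still 1.46 above day 0 (SE 0.105, edgeR adjusted p = 5.43e-06), and it differed from day 7 by -0.25 (edgeR adjusted p = 0.0615). That last difference passed the threshold in 8 of 23 alternatives. It was -0.36 without day 21 replicate 1 labelled wild type (edgeR adjusted p = 0.00156) and -0.38 without both libraries that went against their label (edgeR adjusted p = 0.00182). The other 6 were those with the replicate block, with a minimum of 10 counts per library (edgeR adjusted p = 0.0474), in the 3 fits on TPM (limma adjusted p 0.0244 to 0.0439) and on rlog values (limma adjusted p = 0.0398).

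Slc7a5 was also the one transporter called between the genotypes at day 7. Its mean was 340 ± 34.7 CPM for wild type against 206 ± 13.8 CPM for knockout (SD, n = 2 each), with both knockout libraries below both wild-type libraries. The log2 difference was -0.72 (SE 0.145, edgeR adjusted p = 0.0382), so the knockout libraries held 0.608 times the wild-type level. With all 12 libraries the call was lost with an offset for gene length (-0.70, edgeR adjusted p = 0.0628). It was also lost by limma on log2(TPM + 1) without the filter (-0.73, limma adjusted p = 0.0708). The call rested on every library of days 0 and 7: without any 1 of those 8 the edgeR adjusted p was 0.0796 to 0.303, while the difference stayed between -0.82 and -0.61. In a fit of those 8 libraries alone, which leaves out the spread of day 21, the edgeR adjusted p was 0.00104, and without the 2 day 21 libraries that went against their label it was 0.00141. At day 0 the difference, given as a description, was -0.50 (SE 0.146), and at day 21 by label it was -0.36 (edgeR adjusted p = 0.305). The day 21 value was -0.11 without both libraries that went against their label (edgeR adjusted p = 0.658), -0.08 without replicate 1 labelled wild type and -0.59 without replicate 2 labelled wild type, and none of these passed the threshold.

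Its partner Slc3a2 (chromosome 19, 8706882 to 8723369, minus strand) was not called higher at day 7 in either genotype. Wild-type libraries had 427 and 459 CPM before injury, then 341 and 339.9 CPM at day 7, a fall of 0.38 in log2 terms (SE 0.116, edgeR adjusted p = 0.0217). That call was lost without any 1 of the 4 wild-type libraries of days 0 and 7 (edgeR adjusted p 0.0528 to 0.127) and on TPM values, where the log2 change was -0.12 to -0.13. In knockout it was at 431 and 433 CPM and then at 417 and 379 CPM, a log2 difference of -0.12 (edgeR adjusted p = 0.431). The ratio of Slc7a5 to Slc3a2 in TPM, which sets the light chain against the heavy chain it needs, was 0.115 and 0.123 for wild type against 0.0804 and 0.0813 for knockout at day 0. At day 7 the values were 0.485 and 0.554 for wild type against 0.273 and 0.274 for knockout. At day 21 the libraries with a wild-type label had 0.340 and 0.369, and those with a knockout label 0.215 and 0.234. At days 0 and 7 both wild-type libraries were above both knockout libraries. At day 21 they were so by label, but the highest of the 4 was the wild-type-labelled library with little Sesn2, so ordered by Sesn2 the day 21 ratios overlapped.

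**Figure D2:**
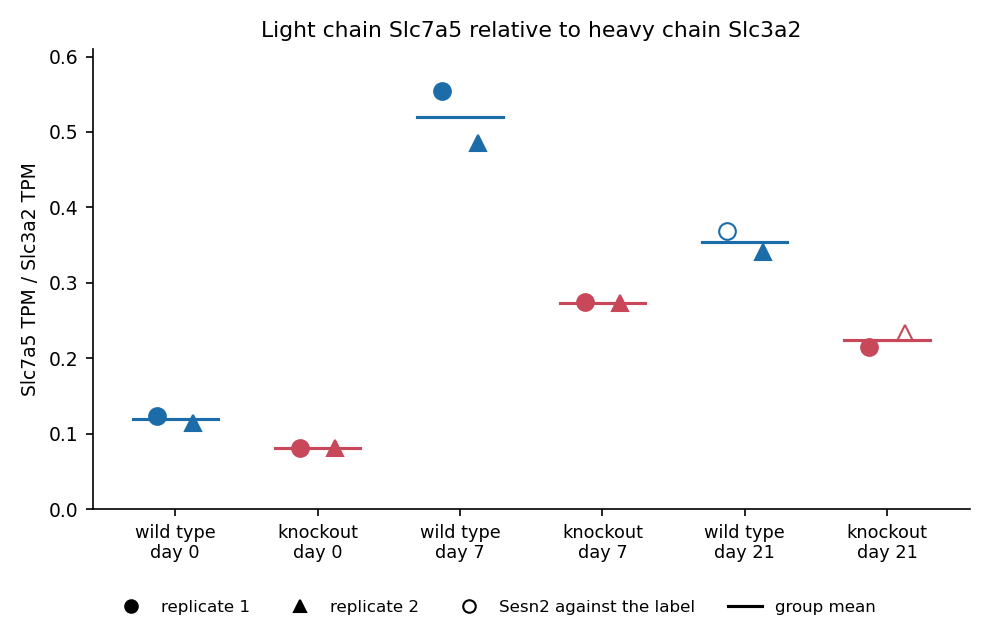
Ratio of the light chain Slc7a5 to its heavy chain Slc3a2, each in TPM (vertical axis, from 0), in every library of each group (horizontal axis, genotype by label and day), wild type in blue and knockout in red. Circles are replicate 1, triangles replicate 2, lines group means, and open symbols the 2 day 21 libraries whose Sesn2 went against their label. The ratio was lowest at day 0, at 0.0804 to 0.123, and highest in the wild-type libraries of day 7, at 0.485 and 0.554.

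Slc3a2 pairs with 6 light chains (Slc7a5, Slc7a6, Slc7a7, Slc7a8, Slc7a10 and Slc7a11), and their summed level stayed below that of Slc3a2 in every library, at 0.138 to 0.624 times its TPM. Slc7a5 made up 57.9% to 67.0% of that sum at day 0, 85.4% to 89.3% at day 7 and 63.0% to 72.8% at day 21. Slc7a8, which carries neutral amino acids with the same heavy chain, was the light chain next in level to Slc7a5, except in knockout day 7 replicate 2, where Slc7a6 was slightly above it. Slc7a8 was at 13.2 to 13.9 TPM at day 0, 5.91 to 9.72 TPM at day 7 and 27.7 to 38.4 TPM at day 21. It rose by 2.14 on the log2 scale from day 7 to day 21 (SE 0.150, edgeR adjusted p = 2.04e-06), while Slc7a5 did not pass the threshold.

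Slc7a11, the cystine carrier (chromosome 3, 49892526 to 50443614, minus strand), was lower in knockout before injury and higher in it at day 7. Wild type had 6.43 and 4.83 CPM and knockout 2.25 and 2.47 CPM at day 0, so both knockout libraries were lower, with a log2 difference of -1.25 (SE 0.296) given as a description. That value depended on the scale: it was -0.90 with an offset for gene length, -0.50 on log2(TPM + 1), -0.79 on log2(TPM + 0.1) and -0.47 on rlog values. By day 7 wild type had 1.75 and 1.58 CPM and knockout 4.44 and 4.19 CPM, so both knockout libraries were higher. The log2 difference at day 7 was 1.37 (SE 0.298) with an edgeR adjusted p of 0.0515, just short of the threshold. It passed in 8 of 24 alternatives. Among them were the fit of the 8 libraries of days 0 and 7 alone (edgeR adjusted p = 0.0131) and the DESeq2 Wald test (adjusted p = 0.00369). The fits without day 21 replicate 1 or 2 labelled wild type, at 1.37 each, were also among them. The other 16 fell short. On TPM values (limma adjusted p up to 0.392) the difference was as low as 0.67, on log2(TPM + 1). It also did not pass with the replicate block (edgeR adjusted p = 0.0592), with the length offset or on rlog values. Nor did it pass without any single library of day 0, of day 7 or of the knockout label at day 21.

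From day 0 to day 7 Slc7a11 fell by 1.76 on the log2 scale in wild type (SE 0.300, edgeR adjusted p = 0.000874) and rose by 0.87 in knockout (SE 0.296, edgeR adjusted p = 0.0331). The wild-type fall was lost in 1 alternative, limma on TPM with no filter (adjusted p = 0.0699). The knockout rise was lost in 12 of 24, among them those without knockout day 0 replicate 1 (edgeR adjusted p = 0.147), day 0 replicate 2 (0.111), day 7 replicate 1 (0.106), day 7 replicate 2 (0.0769), day 21 replicate 1 (0.0532) or day 21 replicate 2 (0.0531), or wild-type day 0 replicate 1 (0.0508). In the other 5 the change itself was smaller: 0.62 with an offset for gene length, 0.46 on log2(TPM + 1) with and without the filter, 0.73 on log2(TPM + 0.1) and 0.33 on rlog values. Whether the change after injury differed between the genotypes was not tested, because that contrast contains the day 0 comparison on which the genes were selected. At day 21 Slc7a11 was at 6.00 and 3.33 CPM under the wild-type label and at 6.98 and 7.08 CPM under the knockout label, and averaged over labels it rose by 1.09 over day 7 (SE 0.207, edgeR adjusted p = 0.00111). With 61 to 206 counts per library at days 0 and 7, and with the length that counts and TPM imply for it ranging from 0.79 to 1.20 times its mean, Slc7a11 is less firmly measured than Slc7a5.

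The sequence before the start of Slc7a11 is shown because it holds the letters of the amino acid response element, the site at which ATF4 binds, in 2 copies that face each other. It covers chr3:50443638-50443694 on the minus strand of GRCm38.p6, from the RefSeq promoter table, written 5′ to 3′ along the gene, with the copies in capitals:
Slc7a11: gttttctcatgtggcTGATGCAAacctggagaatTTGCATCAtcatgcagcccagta
The letters searched were TGATGNAA on either strand, in the 250 bases before the start. The first copy lies 66 to 59 bases before the start on the strand of the gene, and the second 47 to 40 bases before it on the opposite strand. Of all 32851 promoters in that table, 3.45% held the motif. The table had 6 promoters of 5 of the transporters (Slc7a11, Slc7a1 with 2, Slc38a9, Slc38a2 and Slc3a2), and of these 1 held it. The core of the antioxidant response element, TGACNNNGC on either strand, at which the oxidative stress factor Nrf2 binds and which 10.2% of all promoters held, matched in Slc38a2, shown because it rose most of the 3 glutamine carriers from day 7 to day 21 (chr15:96699732-96699770, minus strand, match in capitals, 27 to 19 bases before the start), and in 1 promoter of Slc7a1:
Slc38a2: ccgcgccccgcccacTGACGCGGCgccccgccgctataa
The E-box CACGTG, held by 6.02% of all promoters, matched in none of the 6. A match describes letters in this window and shows no binding.

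The 3 cationic amino acid carriers were low, with a summed level of 14.5 to 29.3 TPM. Slc7a1 (chromosome 5, 148327410 to 148399904, minus strand), the widely expressed arginine carrier, kept within a narrow range: 15.2 to 16.7 CPM in the 4 libraries of day 0, between 16.3 and 18.6 CPM at day 7 and from 17.0 to 23.9 CPM at day 21. Its log2 change from day 0 to day 21 was 0.33 (SE 0.114, edgeR adjusted p = 0.0370), a call lost in 12 of 23 alternatives, among them those without any single day 0 library (edgeR adjusted p 0.0759 to 0.110), either wild-type day 7 library (0.0530 for each), or day 21 replicate 1 labelled wild type (0.116) or replicate 2 labelled knockout (0.135). Without both libraries that went against their label it was 0.14 (edgeR adjusted p = 0.294).

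Slc7a2 (chromosome 8, 40862396 to 40922308, plus strand), known as the arginine carrier of liver and of activated macrophages, rose by day 7 in wild type and was high in all 4 libraries of day 21. Its wild-type libraries had 21.2 and 20.7 CPM and its knockout libraries 21.9 and 22.0 CPM at day 0. By day 7 wild type had 29.6 and 26.9 CPM against 22.2 and 21.4 CPM for knockout, with no overlap. The rise in wild type was 0.43 log2 units (SE 0.113, edgeR adjusted p = 0.00990), and the knockout value was -0.01 (edgeR adjusted p = 0.957). In TPM, which follows the transcript length implied in each library, the knockout libraries were at 5.97 and 6.55 at day 0 and at 7.64 and 7.01 at day 7, and the wild-type libraries at 5.36 and 6.62 and then at 10.5 and 11.3. The wild-type rise was larger on that scale, 0.86 on log2(TPM + 0.1). The wild-type call was lost without wild-type day 0 replicate 1, day 0 replicate 2 or day 7 replicate 1, with edgeR adjusted p of 0.0504, 0.0675 and 0.0768. The log2 difference between genotypes at day 7 was -0.37 (SE 0.113, edgeR adjusted p = 0.150), so it was not called, and whether the change differed between genotypes was not tested. At day 21 all 4 libraries were at 32.7 to 38.1 CPM, a rise of 0.52 over day 7 (SE 0.0795, edgeR adjusted p = 0.000261) and of 0.73 over day 0 (SE 0.0800, edgeR adjusted p = 5.95e-05). Its share of the summed TPM of the 3 carriers was 33.1% to 37.8% at day 0 and 42.1% to 50.5% at day 21, and day 7 gave 47.6% and 48.9% for wild type against 33.8% and 35.0% for knockout.

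Slc7a3 (chromosome X, 101079210 to 101086020, minus strand), a cationic carrier known mainly from brain and early embryo, had 0 counts in both wild-type libraries of day 0 and 20 and 13 counts, 0.608 and 0.479 CPM, in the knockout libraries. Against the limit that 3 counts per library would give in wild type, a mean of 0.0864 CPM, the knockout mean of 0.543 ± 0.0914 CPM (SD, n = 2) was at least 6.29-fold higher, which is the difference it was picked for. Slc7a3 was detected in all 8 libraries of days 7 and 21, with 9 to 50 counts. At day 7 the wild-type libraries, at 0.789 and 0.310 CPM, overlapped the knockout libraries, at 1.25 and 0.682 CPM, and the log2 difference was 0.81 (SE 0.646, edgeR adjusted p = 0.652). At day 21 it was higher in the libraries labelled wild type, at 0.856 and 0.694 CPM, than in those labelled knockout, at 0.332 and 0.440 CPM, with a log2 difference of -0.99 (SE 0.670, edgeR adjusted p = 0.545). Its length implied by counts and TPM was 0.46 times its mean in knockout day 0 replicate 2 and 1.06 times in replicate 1, so the few day 0 counts of the 2 libraries imply transcripts of different length.

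Between the genotypes at day 0, 27.4% of all genes tested were past the threshold and the libraries of 75.1% did not overlap. No count of transporters past the threshold is given for that day, since they were selected on it, and 9 of the 10 did not overlap, which is a description only. At day 7, 1 of 10 was called, Slc7a5, against 1.76% of all genes, of which 1.08% were higher and 0.68% lower in knockout. The libraries of 7 of 10 did not overlap, against 47.4% of all genes, 5 of them higher and 2 lower in knockout. In the fit of the 8 libraries of days 0 and 7 alone, 7.46% of all genes were called, and so were 3 transporters: Slc7a5, Slc7a11 and Slc38a2, the last with a log2 difference of 0.26 (edgeR adjusted p = 0.0235). The median log2 difference of the 10 at day 7 was 0.15, against 0.00 over all genes.

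**Figure D3:**
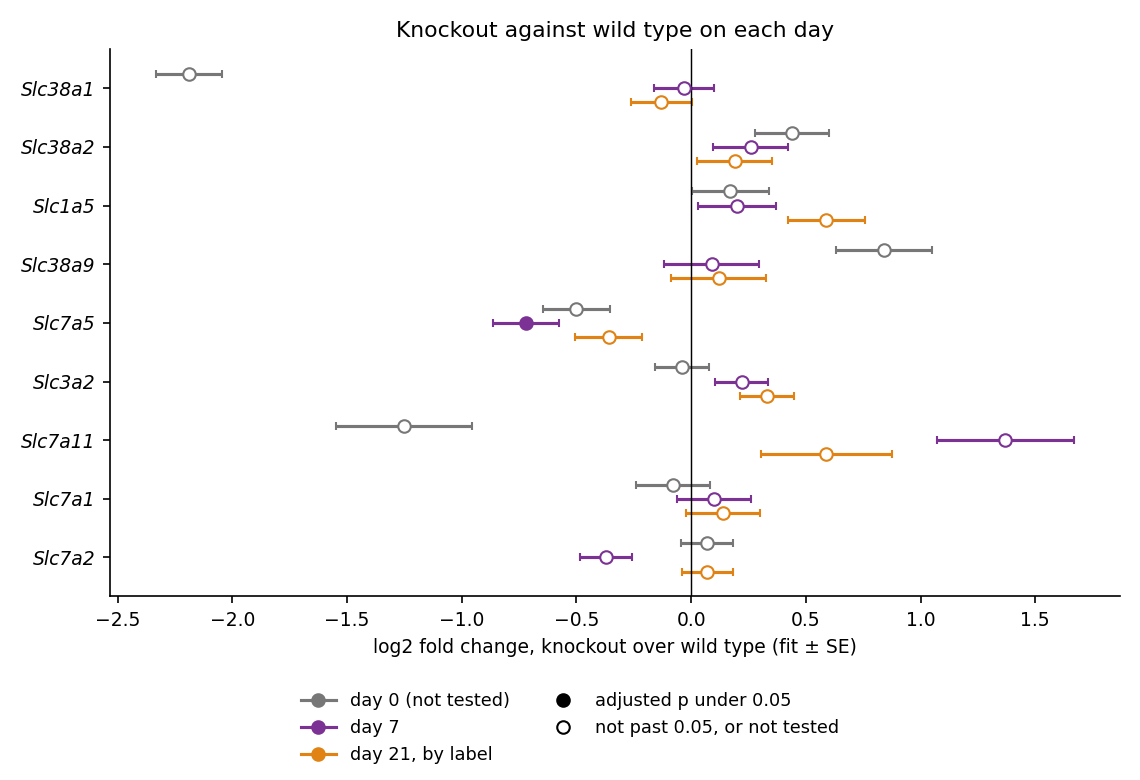
Fitted log2 fold change of knockout over wild type (horizontal axis) for 9 transporters at day 0 (grey, not tested), day 7 (purple) and day 21 by label (orange), with bars of 1 standard error and a filled point where the edgeR adjusted p was under 0.05. Slc7a3 is left out because it had no count in wild type at day 0. Slc38a1 stood at -2.19 at day 0 and at -0.03 at day 7, Slc7a11 went from -1.25 to 1.37, and Slc7a5 was at -0.50, -0.72 and -0.36, the last being -0.11 without the 2 day 21 libraries whose Sesn2 went against their label.

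From day 0 to day 7, 6 of the 8 transporters tested were called in wild type, 2 up (Slc7a5 and Slc7a2) and 4 down (Slc38a2, Slc3a2, Slc7a11 and Slc1a5). Of all genes 47% were called, 25.8% up and 21.2% down. In knockout 4 of 8 were called, 2 up (Slc7a5 and Slc7a11) and 2 down (Slc38a2 and Slc1a5), against 46.9% of all genes, 24.7% up and 22.2% down. The libraries of days 0 and 7 did not overlap for 7 of the 8 in each genotype, against 79.6% of all genes in wild type and 76.1% in knockout. The median log2 change of the 8 was -0.17 in wild type and -0.06 in knockout, against 0.06 and 0.03 over all genes. The transporters called moved in both directions in each genotype.

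**Figure D4:**
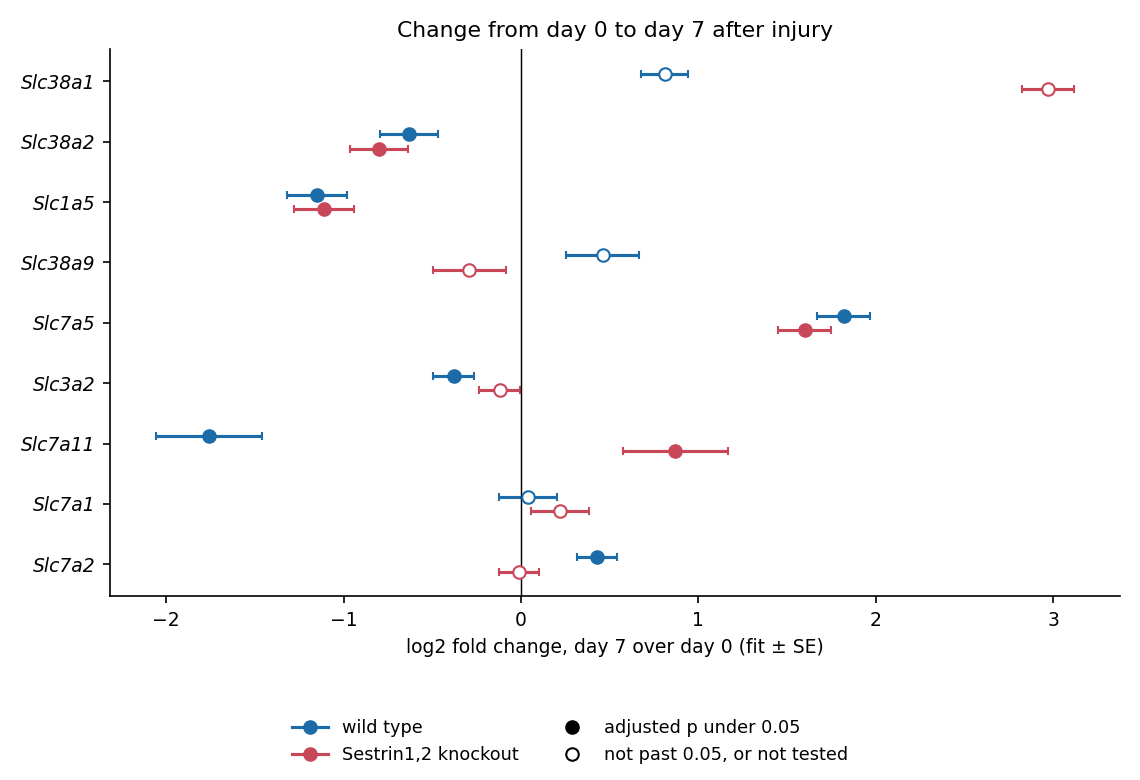
Fitted log2 fold change of day 7 over day 0 (horizontal axis) for 9 transporters in wild type (blue) and knockout (red), with bars of 1 standard error and a filled point where the edgeR adjusted p was under 0.05. Slc38a1 was not tested because its day 0 level was used to pick it, and Slc7a3 is left out. Slc7a5 rose by 1.82 and 1.60, Slc1a5 fell by 1.15 and 1.11, and Slc7a11 fell in wild type and rose in knockout.

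Markers of several cell types moved over the same days. Summed cell cycle markers were at 30.3 to 84.0 TPM at day 0 and at 614 to 691 TPM at day 7, with all 10 markers higher in each genotype. Summed markers of differentiated muscle, among them Ckm and Acta1, went from 75.9 to 129 TPM at day 0 to 2534 to 5239 TPM at day 7. Of 9 immune markers 7 were higher at day 7 in each genotype without overlap, among them Cd74, from 1.56 to 207 TPM, and C1qb, from 0 to 44.9 TPM, on average in wild type, while Lyz2 was at 2035 and then 372 TPM. Fibro-adipogenic markers were higher for 7 of 10 and lower for 2 of 10 in each genotype, and Dcn was at 5877.5 and then 2435 TPM and Gsn at 3563 and then 936 TPM in wild type. In the same span red blood cell markers were lower for 7 of 7 in wild type and 2 of 7 in knockout. Skin and sebaceous markers were lower for 8 of 10 in wild type, and in knockout 4 were lower and 2 higher. Endothelial markers were lower for 6 of 10 in knockout, while in wild type 2 were lower and 2 higher. Stem cell markers were higher for 6 of 10 in each genotype, and lower for 4 in wild type and 3 in knockout. Between the genotypes at day 7 these lists overlapped for differentiated muscle, endothelial, immune and skin markers, while stem cell markers (1003 to 1066 TPM in wild type, 1086 to 1125 TPM in knockout), cell cycle markers (614 to 667 and 686 to 691 TPM) and fibro-adipogenic markers (12885 to 14015 and 14617 to 15186 TPM) were higher in knockout, and red blood cell markers lower (793 to 1073 and 329 to 765 TPM). Within the stem cell list 5 of 10 markers were nonetheless lower without overlap and 1 higher. For cell cycle markers 5 were higher and 1 lower, and for fibro-adipogenic markers 6 and 1. The part of these cell types in the transporter changes, the rise of Slc7a2 included, was not tested.

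From day 7 to day 21, averaged over the genotype labels, 5 of 10 transporters were called: Slc38a2, Slc7a2, Slc7a11 and Slc1a5 rose and Slc38a1 fell. Slc3a2, at 0.20 (edgeR adjusted p = 0.0655), passed the threshold with DESeq2 (adjusted p = 0.0293), with DESeq2 size factors (edgeR adjusted p = 0.0471), on rlog values (limma adjusted p = 0.0443) and without replicate 2 labelled wild type, at 0.28 (edgeR adjusted p = 0.00207). Slc7a1, at 0.20 (edgeR adjusted p = 0.159), passed without replicate 1 labelled knockout, at 0.32 (edgeR adjusted p = 0.0307). Of all genes 56.8% were called, 28.4% in each direction. Against day 0, 5 of 8 were called at day 21, all of them up (Slc38a2, Slc7a1, Slc7a2, Slc7a5 and Slc7a11), against 45.9% of all genes, 25% up and 20.8% down. Slc7a11, at 0.65 (SE 0.206, edgeR adjusted p = 0.0250), kept no call there without wild-type day 0 replicate 2 (edgeR adjusted p = 0.0981), knockout day 0 replicate 1 (0.0815) or 2 (0.0581), day 21 replicate 1 labelled wild type (0.0944), or replicates 1 (0.0529) or 2 (0.0565) labelled knockout, and was at 0.41 without that wild-type one. In all, that Slc7a11 call was lost in 7 of 23 alternatives, and on rlog values its change was 0.40. The median log2 change of the 8 transporters tested was 0.49, against 0.02 over all genes. Cell type markers moved over these days as well. From day 7 to day 21 the summed cell cycle markers went from 614 to 691 TPM down to 43.4 to 96.4 TPM, with 10 of 10 lower without overlap. Markers of differentiated muscle went from 2534 to 5239 TPM down to 326 to 722 TPM, with 8 of 10 lower. Without overlap 4 stem cell markers were higher and 3 lower, and 5 of 7 red blood cell markers were higher. At day 21 differentiated muscle markers were still higher than at day 0 for 8 of 10, and stem cell and fibro-adipogenic markers for 6 of 10 each. The part of these cell types in the transporter changes was not tested.

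With day 21 libraries compared by genotype label, edgeR called 0 of the 10 transporters and 0.0126% of all genes. At an unadjusted p under 0.05 there were 3, Slc1a5, Slc3a2 and Slc7a5, and DESeq2 called 1, Slc1a5 (adjusted p = 0.0354), while limma on TPM called 0. DESeq2 called 471 genes in all there. The libraries of 7 transporters did not overlap, against 38% of all genes. By label 8 of 10 stem cell markers and 7 of 10 cell cycle markers were lower in knockout without overlap, and 8 of 10 markers of differentiated muscle, 6 of 10 endothelial and 4 of 7 red blood cell markers were higher. Summed markers of differentiated muscle were at 520 to 722 TPM under the knockout label and 326 to 331 TPM under the wild-type label, and stem cell markers at 1006 to 1158.5 and 1301 to 1436 TPM. Their part in the transporter differences was not tested. Without the 2 libraries that went against their label, which leaves 1 library on each side whose spread is assumed to be that of the other groups, 3 were called higher in the knockout library. Slc38a2, at 0.19 by label (edgeR adjusted p = 0.642) with overlapping libraries, was then higher by 0.65 (edgeR adjusted p = 0.00241), Slc3a2 by 0.53 (edgeR adjusted p = 0.0102) and Slc1a5 by 0.74 (edgeR adjusted p = 0.00181), and 1200 genes were called in all. Leaving out only replicate 1 labelled wild type was enough to call Slc1a5 at 0.92 (edgeR adjusted p = 0.00607) and Slc3a2 at 0.53 (edgeR adjusted p = 0.0131), in a fit in which 865 genes were called in all. Slc38a2 turned to -0.03 without replicate 2 labelled wild type and to -0.06 without replicate 1 labelled knockout, neither past the threshold.

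Other plasma membrane carriers of amino acids were counted for comparison, 28 of 37 listed genes having passed the filter. From day 0 to day 7 in wild type 6 rose and 11 fell, with a median log2 change of -0.39, and in knockout 4 rose and 9 fell, with a median of -0.27. Of all genes 25.8% rose and 21.2% fell in wild type, and 24.7% rose and 22.2% fell in knockout. Slc36a2, a proton-coupled carrier of small amino acids, fell from 36.2 to 3.67 CPM in wild type, or by 3.30 log2 units (SE 0.205, edgeR adjusted p = 1.93e-06), and fell by 3.07 in knockout (SE 0.204, edgeR adjusted p = 1.84e-06). Slc38a11, of the same family as Slc38a1, fell by 1.42 and 2.26 in the 2 genotypes (edgeR adjusted p = 2.04e-05 and 1.08e-06). Slc38a4, another carrier of small neutral amino acids, rose by 1.47 in wild type (SE 0.238, edgeR adjusted p = 0.000650) and by 5.67 in knockout (SE 0.306, edgeR adjusted p = 5.46e-07). Of the glutamate carriers, Slc1a3 fell by 1.06 in wild type (edgeR adjusted p = 0.000741). Slc1a1 fell by 1.06 in wild type and fell by 1.04 in knockout (edgeR adjusted p = 0.0335 and 0.0383). Slc1a2, a low transcript, rose by 3.50 and 3.39 (edgeR adjusted p = 0.00479 and 0.00582). Slc7a7, another partner of Slc3a2, was called in wild type, at 0 CPM and then 1.74 CPM. In knockout the taurine carrier Slc6a6 rose by 1.18 (edgeR adjusted p = 0.000249). The neutral amino acid carrier Slc6a15 fell by 1.52 in wild type and fell by 2.18 in knockout (edgeR adjusted p = 0.00512 and 0.000628). From day 7 to day 21 Slc38a11 and Slc38a6 rose, by 1.50 and 1.03 (edgeR adjusted p = 1.04e-06 and 2.37e-06), while Slc38a4 fell by 1.21 and Slc38a5 fell by 1.93 (edgeR adjusted p = 0.000130 and 0.0294). Against day 0, Slc38a4, Slc7a8 and Slc1a4 were higher at day 21, by 2.36, 1.17 and 1.10 (edgeR adjusted p = 1.06e-05, 0.000142 and 1.15e-05), whereas Slc36a2, Slc6a15 and Slc6a17 were lower, at -1.47, -1.17 and -1.16 (edgeR adjusted p = 2.05e-05, 0.00311 and 0.0243). Before injury Slc38a4 had 8.12 CPM for wild type against 0.804 CPM for knockout, and Slc38a3, a glutamine carrier, 7.52 against 2.38 CPM. In all 3 of the 28 were past the threshold lower in knockout at day 0 and 3 higher, and the higher ones included Slc38a11 (0.87) and Slc38a10 (0.44) of the same family, where 27.4% of all genes were past it. Between the genotypes at day 7, edgeR called 0 of the 28 (4 at an unadjusted p under 0.05, 2 by DESeq2 and 0 by limma on TPM), and at day 21 by label 0 of the 28 (0 at an unadjusted p under 0.05, 0 by either other tool). DESeq2 called 787 genes in all at day 7.

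Of the 10 symbols listed for lysosomal carriers besides Slc38a9, 9 were present in the data, and all 9 were tested. In wild type 2 rose and 2 fell from day 0 to day 7, and in knockout 1 rose and 1 fell, against the same shares of all genes. Slc36a4, a lysosomal and endosomal carrier of proline and tryptophan, rose by 0.45 in wild type (edgeR adjusted p = 0.0441) and by 0.80 from day 7 to day 21 (SE 0.115, edgeR adjusted p = 0.000174). Ctns, the lysosomal cystine exporter, fell by 0.32 in wild type and 0.56 in knockout from day 0 to day 7 (edgeR adjusted p = 0.0403 and 0.00237). The calls of at least 1 log2 unit were of low transcripts: Slc7a14 fell by 1.54 in wild type (edgeR adjusted p = 0.0333), Slc15a3 rose by 3.24 in knockout (edgeR adjusted p = 0.0342), and Slc36a1 was at -1.14 at day 21 against day 0 (edgeR adjusted p = 0.0289). Between the genotypes at day 7 edgeR called 0 of the 9 (1 at an unadjusted p under 0.05, 0 by DESeq2 or limma on TPM), and at day 21 by label 0 of the 9, with the same counts for the other tests.

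The list of the amino acid deprivation response held 29 genes, ATF4 itself, its regulators and known targets, and all were tested. From day 0 to day 7, 12 rose and 7 fell in wild type (of all genes 25.8% rose and 21.2% fell), and 13 rose and 4 fell in knockout (24.7% and 22.2%). Pycr1, an enzyme of proline synthesis, rose by 1.70 in wild type (SE 0.176, edgeR adjusted p = 3.82e-05) and by 3.85 in knockout (SE 0.201, edgeR adjusted p = 4.50e-07), and Mthfd2, of mitochondrial folate metabolism, by 0.94 and 2.12 (edgeR adjusted p = 0.000482 and 2.96e-06). Iars, isoleucyl-tRNA synthetase, rose by 1.32 in wild type and 0.85 in knockout (edgeR adjusted p = 2.88e-05 and 0.000400), and Eif4ebp1 by 1.11 in wild type and 1.85 in knockout (edgeR adjusted p = 0.000173 and 6.15e-06). Psph, of serine synthesis, fell by 0.48 in wild type (edgeR adjusted p = 0.0302). Among transcription factors, Atf3 fell by 1.67 and 1.37 (edgeR adjusted p = 7.77e-07 and 1.26e-06), and Atf4 itself by 0.85 and 0.46 (edgeR adjusted p = 0.000458 and 0.0142). Ddit3 fell by 1.62 in wild type and fell by 0.74 in knockout (edgeR adjusted p = 8.07e-06 and 0.000914). Cebpb fell by 1.17 and 1.01 (edgeR adjusted p = 0.00146 and 0.00319), while Atf5 rose by 0.92 in knockout (edgeR adjusted p = 0.0131). Trib3, an inhibitor of ATF4 signalling, fell by 2.11 in wild type (edgeR adjusted p = 0.000540). Slc7a11 moved the opposite way to Pycr1 in wild type and the same way in knockout. The list is of mixed function, so its counts give no one direction.

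Between the genotypes at day 7, 22 of the 29 were higher in knockout, 17 of them without overlap, and 5 of the other 7 did not overlap either, where 47.4% of all genes did not. In this comparison edgeR called 2, against 1.76% of all genes. Asns, asparagine synthetase, was higher in knockout by 0.82 (21.0 CPM in wild type, 37.1 CPM in knockout, SE 0.125, edgeR adjusted p = 0.0151). Vldlr, a lipoprotein receptor, was lower by 1.26 (66.5 and 27.8 CPM, SE 0.193, edgeR adjusted p = 0.0151). DESeq2 called 7 of the 29 and 787 genes in all, and limma on log2(TPM + 1) called 2 of the 29 and 138 genes in all. At an unadjusted p under 0.05 there were 13 of the 29, a threshold at which all genes were not counted. Sesn2, which is on this list, was at 44.9 and 47.4 CPM with the gene intact against 2.36 and 1.92 CPM in knockout and did not pass the threshold in this fit, which includes the day 21 libraries that went against their label. At day 0, given as a description, 3 were past the threshold higher and 8 lower in knockout, against 27.4% of all genes either way, Pycr1 among the lower ones at 2.43 CPM against 11.0 CPM, with Atf5 at 2.17 against 4.85 CPM and Nupr1, a stress-response gene, at 74.3 against 159 CPM. Asns was likewise lower in knockout at day 0, at 14.4 CPM against 21.7 CPM, so Asns and Slc7a11 were both lower in knockout at day 0 and higher in it at day 7. At day 21 by label edgeR called 0 of the 29 (5 at an unadjusted p under 0.05, 1 by DESeq2, 0 by limma on TPM). From day 7 to day 21, 8 rose and 12 fell, where 28.4% of all genes were called in each direction. Sesn2 is among the 8 (2.38, edgeR adjusted p = 0.0400), and its day 21 mean includes the knockout-labelled library at 108 CPM. Psat1, of serine synthesis, fell by 1.68 (SE 0.121, edgeR adjusted p = 2.06e-06), Asns fell by 1.16 (SE 0.0901, edgeR adjusted p = 3.33e-06), and Eif4ebp1, a repressor of translation, fell by 1.09 (edgeR adjusted p = 1.07e-05). Pycr1 was still higher at day 21 than at day 0, by 1.89 (edgeR adjusted p = 4.90e-06). The median log2 difference of the list between genotypes was -0.13 at day 0 and 0.24 at day 7, against 0.00 over all genes on both days.

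Across the 12 libraries, the genes with the profile most like Slc38a1 among 9306 genes with a mean of at least 10 CPM over the libraries were Lsp1, Chic2 and Pycr1, with Pearson correlations of log2 CPM of 0.981, 0.975 and 0.974. The profile most like that of Slc7a5 was shared by Mphosph10, Nob1 and Ubtd2, with correlations of 0.979, 0.979 and 0.975. These are descriptions over 12 points in 6 groups, in which the day after injury separates most points, and the profile of Slc38a1 includes the day 0 values it was picked for.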

How the data were processed

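The authors deposited a table of estimated counts per gene, a table of TPM and a table of rlog values on the log2 scale that its name calls batch-corrected. The submitters' processing notes name kallisto 0.46.1 and the builds mm10 and GRCm38.p6. Per the labels, cDNA was made with SMART-Seq v4, libraries with Nextera XT, and reads were single-end of 76 bases. The batch and the counting of strand are not given in the sources used here.

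Estimated counts were rounded and filtered with filterByExpr, scaled by TMM (factors 0.915 to 1.09) and fitted with 1 mean per group over 12 libraries by the robust quasi-likelihood method of edgeR 4.0.16, in R 4.3.3. Adjustment was by Benjamini-Hochberg over 15890 genes. Fitted folds use a prior count of 0.125. Alternatives were DESeq2 1.42.0, its size factors, other filters (none, or 10 counts in every library), a length offset, limma 3.58.1 on log2(TPM + 1 or 0.1) and on rlog values, a replicate block, each library left out, and the fits without day 21 libraries named in the text. Gene positions come from GENCODE on GRCm38. The members and lists were chosen with earlier results of these data known. All transporters are named, and from each list up to 3 called genes each way with the smallest adjusted p among those with an absolute log2 change of at least 1. Slc1a1 was named outside this rule. Asns at days 0 and 7, Slc38a10, Slc38a11 at day 0, Slc36a4, Ctns, Atf4, Atf5 at day 7 and Psph were added after their values were seen. The tests were checked on simulated counts.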

Additional observations from a re-analysis of the deposited data

Results flagged for a closer look

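Slc7a11 moved in opposite directions in the genotypes from day 0 to day 7, with no overlap in either: its log2 change was -1.76 in wild type and 0.87 in knockout. Seen by day, knockout minus wild type was -1.25 at day 0 and 1.37 at day 7. Slc38a9 also moved in opposite directions from day 0 to day 7, by 0.46 in wild type and -0.29 in knockout, neither past the threshold. In TPM its knockout libraries of days 0 and 7 overlapped. Leaving out 1 library gave 0.27 to 0.64 in wild type and -0.55 to -0.07 in knockout. Slc7a1 was lower in both knockout libraries at day 0 (-0.08) and higher in both at day 7 (0.10), in CPM alone, since in TPM its day 0 libraries overlapped and the day 0 sign turned in 5 of 24 alternatives. Slc7a2 was higher in both knockout libraries at day 0 (0.07) and lower in both at day 7 (-0.37). Its day 0 order held in CPM alone, since in TPM its day 0 libraries overlapped. For all of these the difference itself was not tested, since it contains the day 0 comparison.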

How the results depend on the processing

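With a minimum absolute log2 fold change of 1, the genes called between genotypes at day 0 were 1495 in place of 4356. The transporters called were then 0 in place of 1 at day 7, 3 in place of 6 from day 0 to day 7 in wild type, 2 in place of 4 in knockout, 3 in place of 5 from day 7 to day 21, and 1 in place of 5 from day 0 to day 21. All genes called in those comparisons, in the same order, were 89 in place of 280, 3665 in place of 7468, 3709 in place of 7450, 3224 in place of 9028 and 1742 in place of 7289. Between genotypes at day 7, 2 transporters were called with DESeq2 size factors, with DESeq2, with no filter, with 10 counts in every library and on rlog values. There were 3 without the 2 contradicted day 21 libraries and 3 in the fit of days 0 and 7 alone. There were 0 with the length offset and 0 by limma on unfiltered TPM. All genes called at day 7 were 787 with DESeq2, 825 on rlog values, 166 with the length offset and 101 by limma on unfiltered TPM, against 280 in the main fit. At day 21 by label, DESeq2 called 1 transporter and 471 genes in all. Leaving out 1 library at a time gave 1667 to 5166 genes at day 0, 0 to 2 transporters at day 7 and at day 21, 3 to 6 and 3 to 4 from day 0 to day 7 in wild type and knockout, 5 to 6 from day 7 to day 21 and 3 to 5 from day 0 to day 21. All genes called between genotypes at day 7 ran from 15, without wild-type day 7 replicate 1, to 1169, in the fit of days 0 and 7 alone. Small day 0 differences turned sign: Slc7a1, from -0.08, was 0.08 with the length offset, 0.13 by limma on log2(TPM + 1) with and without the filter, 0.15 on log2(TPM + 0.1) and 0.06 on rlog values. Slc3a2, from -0.04, was 0.08 in the 3 TPM fits, and Slc7a2, from 0.07, was -0.01 on rlog values. The cause of these shifts between fits was not tested. Slc7a5 kept its call after injury in both genotypes, and Slc1a5 its fall, in all 24 alternatives.

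Replicate numbers are shared by all groups, but libraries with the same number did not deviate together (r of -0.143 to 0.070 over 15 pairs of groups), so they were not treated as pairs. With the number as a replicate block the day 7 call of Slc7a5 held (adjusted p = 0.0407), Slc7a5 passed from day 7 to day 21 (0.0484) and Slc7a1 was lost from day 0 to day 21 (0.0512). For Slc7a3, with at most 50 counts, the 95% interval of the day 7 difference ran from -0.62 to 2.25, which is how closely these counts and 2 libraries a group fix it.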
